A study of Mus musculus with 18 samples.

Results

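Binding of the cohesin subunit RAD21 and of the cohesin loader NIPBL is described here at 5 mouse genes of the MHC class II pathway: H2-Ab1, H2-Aa and H2-Eb1, which encode chains of the class II molecules, Cd74, which encodes the invariant chain, and Ciita, which encodes the class II transactivator. They were taken by symbol, with no threshold on any measured value, and are 5 of the 22208 protein-coding genes of the annotation used. All peaks within 5 kb of their starts, in their bodies or within 20 kb of them were taken from the 14 deposited peak lists, and merged where they overlapped by 1 bp or more. This gave 83 merged sites: 31 around the class II genes, 27 around Cd74 and 25 around Ciita.

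The study mapped both proteins by ChIP-seq, in which fixed chromatin is sheared and the DNA bound by a protein is recovered with an antibody and sequenced, in a v-Abl transformed mouse pro-B cell line, to follow loop extrusion in the recombination of the Igh locus. By the labels the cells of every group were JH-del, were dCas9 expressing (dCas9 is the catalytically dead form of the Cas9 nuclease), carried Emu-Bcl2, a Bcl2 transgene named for the Igh intronic enhancer, and were RAG2 deficient. All were kept for 4 days in 3 uM STI-571, an inhibitor of the Abl kinase, and fixed in 1% formaldehyde. For RAD21 there were 2 libraries of dCas9 control cells, 2 of dCas9 block cells, which also carried the Sg1-sgRNA guide, and, in a second experiment, 3 of Ig2b wild type and 3 of Ig2b-del/del cells (called deleted below). The Ig2b wild type cells have the same genotype label as the dCas9 control. For NIPBL there were 2 libraries of control and 2 of block cells. The guide and the deletion are named for parts of Igh, which lies on another chromosome than any of the 5 genes. The age and strain of the donor of the line and the number of clones are not given in the sources used here, and nothing in the labels says that replicates came from separate cultures, so each p below measures only the spread between these libraries.

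Class II molecules are pairs of an alpha and a beta chain that show peptides to CD4 T cells on the surface of B cells, dendritic cells and macrophages. CIITA does not bind DNA itself: it is recruited to the X and Y boxes in the promoters of the chain genes and of Cd74 by the RFX and NF-Y factors, and it is made from several promoters that differ between cell types. Cohesin extrudes loops of chromatin after loading by NIPBL and stops most often at sites bound by CTCF, so RAD21 peaks tend to mark CTCF sites and NIPBL peaks tend to mark active promoters and enhancers.

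The RAD21 lists held 44783 to 82776 peaks and the NIPBL lists 63153 to 123573. They covered 11.6 to 34.4 Mb and 20.3 to 29.8 Mb. Read depth is unknown, so the measures used are the presence of a called peak and the bases it covered, and fewer cells bound cannot be told apart from less binding per cell. In the RAD21 dCas9 lists both replicate 1 libraries share one style of peak names and both replicate 2 libraries another, and the replicate 2 lists were longer in bases (34.4 and 31.5 Mb against 15.9 and 23.7 Mb). Differences for that experiment are therefore also given within each replicate number. The label of a B lineage line was set against its markers: 8 of 9 B lineage genes, among them Ebf1, Pax5, Vpreb1 and Cd79a, had a peak within 5 kb of the start in all 10 RAD21 libraries, and 8 of 9 in all 4 NIPBL libraries. Among all genes 23.4% had one in all 10 RAD21 and 51.7% in all 4 NIPBL libraries. Of 4 T cell genes 1 (Lck) had one in all libraries of both proteins, and Cd3e had none in any library. Of 6 myeloid and dendritic genes 1 (Fcer1g) had one in all RAD21 and 3 in all NIPBL libraries, and Alb and Gata1 had none. The T cell and myeloid counts were thus not far from the share of all genes, or too small to tell.

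Within the zones of the 5 genes 10 merged sites had a peak in all 10 RAD21 libraries. Each was searched for the core of the CTCF motif, taken as a consensus of 12 letters with at most 1 mismatch on either strand, in the 300 bases around the middle of its peaks. A core was found in 8 of the 10 (80%), against 59.6% of the 25633 sites of the genome with a peak in all 10 RAD21 libraries and 2.37% of genome tiles of the same length. Those of 6 sites are shown because they are positions at which cohesin was called in every list. Each is read from mm9 (NCBIM37), 5′ to 3′ on the strand of the core, with the core in capitals and 30 bases to each side. None overlaps an annotated exon.
H2-Ob side at -13.1 kb from the H2-Ab1 start, chr17:34386979-34387050, plus strand: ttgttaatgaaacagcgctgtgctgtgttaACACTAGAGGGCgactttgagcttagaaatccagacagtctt
H2-Ob side at -11.4 kb from the H2-Ab1 start, chr17:34388701-34388772, plus strand: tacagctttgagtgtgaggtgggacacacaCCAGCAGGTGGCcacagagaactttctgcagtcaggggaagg
H2-Ab1 intron at 0.962 kb, chr17:34401140-34401211, minus strand: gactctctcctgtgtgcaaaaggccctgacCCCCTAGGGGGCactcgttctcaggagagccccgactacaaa
H2-Aa intron at 1.79 kb, chr17:34422956-34423027, minus strand: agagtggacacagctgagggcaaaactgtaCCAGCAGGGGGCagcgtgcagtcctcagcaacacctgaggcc
Ciita intron at 41.2 kb, chr16:10521448-10521519, minus strand: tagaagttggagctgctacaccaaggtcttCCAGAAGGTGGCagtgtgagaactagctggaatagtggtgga
Ciita intron at 42.9 kb, chr16:10523074-10523145, minus strand: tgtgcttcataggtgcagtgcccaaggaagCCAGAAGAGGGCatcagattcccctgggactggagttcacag
Around the class II genes the cores shown fell into 2 sets by strand. Those on the H2-Ob side, before H2-Ab1, lay on the plus strand, and those inside H2-Ab1 and H2-Aa on the minus strand, so that the sets faced each other across the interval. Both Ciita cores lay on the minus strand, against the direction of the gene. A core 16.6 kb before Cd74 lay on the plus strand and matched with 0 mismatches, as did those at -11.4 kb and in H2-Aa. In the highest peak of the site, all 10 RAD21 libraries held the core at each of the 8 sites with one.

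Promoter sequence was at hand for H2-Aa and H2-Eb1 in the RefSeq-derived table of GRCm38.p6, and both are shown because the chain genes are known for the X and Y boxes. The 150 bases before the start are given 5′ to 3′ on the strand of the gene, with GCAAC (a part of the X box) and GATTGG (the Y box, which holds the CCAAT box in reverse) in capitals.
H2-Aa promoter, chr17:34287824-34287973 of GRCm38.p6, minus strand: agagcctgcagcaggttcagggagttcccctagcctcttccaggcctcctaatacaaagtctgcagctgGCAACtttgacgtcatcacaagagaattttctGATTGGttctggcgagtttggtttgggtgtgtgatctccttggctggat
H2-Eb1 promoter, chr17:34305717-34305866 of GRCm38.p6, plus strand: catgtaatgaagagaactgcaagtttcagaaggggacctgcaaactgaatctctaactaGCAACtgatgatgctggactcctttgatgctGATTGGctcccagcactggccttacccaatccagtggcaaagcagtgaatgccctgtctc
GCAAC began 81 bases before the H2-Aa start and 91 before the H2-Eb1 start, and GATTGG followed after 27 and 26 bases. Over the 250 bases before the start of all 32851 promoters of the table, GCAAC occurred on either strand in 29.9% and GATTGG in 14.6%. GCAAC followed by GATTGG on the strand of the gene with 10 to 30 bases between them occurred in 62 (0.189%), and this spacing was chosen after the promoters had been read. A match is a description of letters and not of a bound factor.

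The beta chain of the I-A molecule is encoded by H2-Ab1 (chr17:34400154-34406363, mm9, plus strand). A peak lay within 5 kb of its start in 4 of 4 NIPBL and 10 of 10 RAD21 libraries, and NIPBL covered more of this window than of that of any other member. NIPBL covered 1218 and 1146 bp of that window of 10 kb in the control libraries and 1448 and 2169 bp in the block libraries. RAD21 covered 296 and 1978 bp in dCas9 control, 333 and 1272 bp in dCas9 block, 343, 517 and 138 bp in Ig2b wild type and 443, 520 and 254 bp in deleted libraries. Both NIPBL block libraries lay above both controls, while the RAD21 groups overlapped in each comparison. Within the NIPBL lists this window held more covered bp than 89.2% to 96.7% of all genes.

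At H2-Ab1 the highest peaks of the proteins had their middles at different places. The highest RAD21 peak had its middle at 0.587 to 1.04 kb from the start (median 0.964 kb, n = 10), over the core printed above. The highest NIPBL peak had its middle further into the gene, at 1.604 to 1.77 kb (median 1.72 kb, n = 4), and held the core in 1 of 4 libraries. The ranges of the middles did not overlap, while the covered bases did in part. RAD21 dCas9 control replicate 2 and block replicate 2 had further RAD21 peaks within the stretch of the NIPBL peaks, at 1.538 to 2.116 kb and 1.707 to 2.049 kb, and NIPBL control replicate 2 had a lower peak at 0.958 to 1.076 kb, over the core. The site held 2 and 3 NIPBL peaks in control replicates 1 and 2, and 2 in each block library. In control replicate 1 and both block replicates a lower NIPBL peak lay over the H2-Ab1 start itself, so NIPBL was not only past it. The highest NIPBL peaks there were 824 to 1466 bp wide and the highest RAD21 peaks 138 to 1348 bp. In fold, which is the enrichment that the authors' caller gave each peak and is not on 1 scale between lists, the NIPBL peak was 3.39 to 6.39 and the RAD21 peak 3.64 to 8.91, or higher than 72.6% to 90.4% and 29.0% to 80.0% of the peaks of the same list.

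Its partner in the I-A molecule, the alpha chain, is encoded by H2-Aa (chr17:34406276-34424772, minus strand; the model is long because of 1 transcript outside the CCDS set, the consensus set of coding sequences). It too had a peak within 5 kb of the start in all 14 libraries, but the peaks were narrow and not at 1 site. Within 2 kb of the start RAD21 had a peak in 10 of 10 and NIPBL in 2 of 4 libraries. In the other NIPBL libraries the peak lay at -3.94 kb from the start, in intergenic sequence. RAD21 covered 171 and 669 bp in dCas9 control, 327 and 242 bp in block, 129, 254 and 132 bp in Ig2b wild type and 143, 192 and 169 bp in deleted libraries. NIPBL covered 266 and 175 bp in control and 323 and 107 bp in block. All groups compared overlapped. The RAD21 site lay 1.79 kb inside the gene, with no NIPBL peak in any library and a fold of 3.27 to 6.89 (median 3.58). Of the 7 class II sites it had the lowest fold in 9 of 10 RAD21 lists. At a -log10 q of at least 3 a start peak was left in 3 of 10 RAD21 and 0 of 4 NIPBL libraries. A second RAD21 site in its gene model, 9.11 kb past the H2-Ab1 start between the coding parts of both genes, was present in all 10 RAD21 and no NIPBL libraries (fold 3.69 to 8.90) and held no core by the rule used.

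The gene of the beta chain of the I-E molecule, H2-Eb1 (chr17:34442828-34453144, plus strand), had little at the start and a high peak inside. Near its start RAD21 covered 0 and 233 bp in dCas9 control and 51 and 202 bp in block libraries, and 0 bp in all 6 Ig2b libraries. NIPBL covered 168 and 0 bp in control and 178 and 0 bp in block. Peaks thus lay there in 3 of 10 RAD21 and 2 of 4 NIPBL libraries, with at most 233 bp covered in a library. The site 7.72 kb into the gene, in an intron, was present in all 10 RAD21 and all 4 NIPBL libraries. Its RAD21 fold was 8.65 to 16.9 (median 10.5), above 82.5% to 98.0% of the peaks of the same list. Its NIPBL peaks were narrow, at 70 to 206 bp against 317 to 619 bp for RAD21. Their fold was 2.84 to 4.21, above 40.5% to 76.9% of the peaks of the same list.

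**Figure D1:**
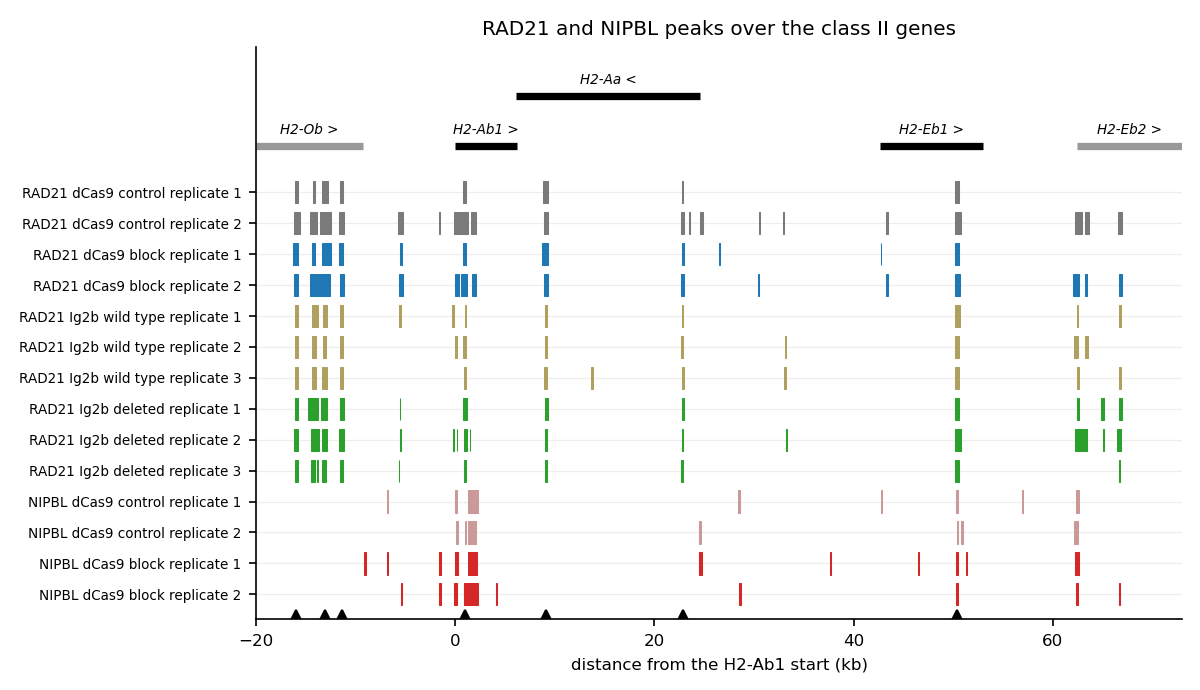
Called peaks over the class II genes in each of the 14 libraries (rows, coloured by group), with distance from the H2-Ab1 start in kb on the x axis, gene models above (arrowheads give the direction) and triangles at the 7 sites held by all 10 RAD21 lists. RAD21 marks line up at these 7 positions, whereas NIPBL lines up past the H2-Ab1 start, inside H2-Eb1 and at the H2-Eb2 start.

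Across the whole class II interval, from 20 kb before H2-Ab1 to 20 kb after H2-Eb1 (chr17:34380154-34473144, 92.991 kb), 22 of the 31 sites held a RAD21 peak in at least 1 library, 17 a NIPBL peak and 8 both. The 7 sites in all 10 RAD21 libraries spanned 66.3 kb. The first 3, at -16.0, -13.1 and -11.4 kb from the H2-Ab1 start, lay in an extension of the H2-Ob model outside its CCDS transcript. They had RAD21 folds of 5.04 to 13.4, 7.23 to 13.0 and 5.09 to 14.6 and no NIPBL in any library. Toward H2-Eb1 the gaps between neighbouring sites were 12.4, 8.15, 13.7 and 27.6 kb. In 5 of 10 RAD21 lists the highest fold of the interval was at -13.1 kb, and in the other 5 inside H2-Eb1. The former were all Ig2b lists, and the latter were all the dCas9 lists and Ig2b deleted replicate 1. NIPBL was in all 4 libraries at 3 sites, those in H2-Ab1 and H2-Eb1 and one over the start of H2-Eb2, the gene of another beta chain (fold 3.00 to 6.51), where 7 of 10 RAD21 libraries also had a peak. At the H2-Eb1 and H2-Eb2 sites the highest NIPBL peak had a -log10 q of at least 3 in block replicate 1 alone (3.25 and 7.43).

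**Figure D2:**
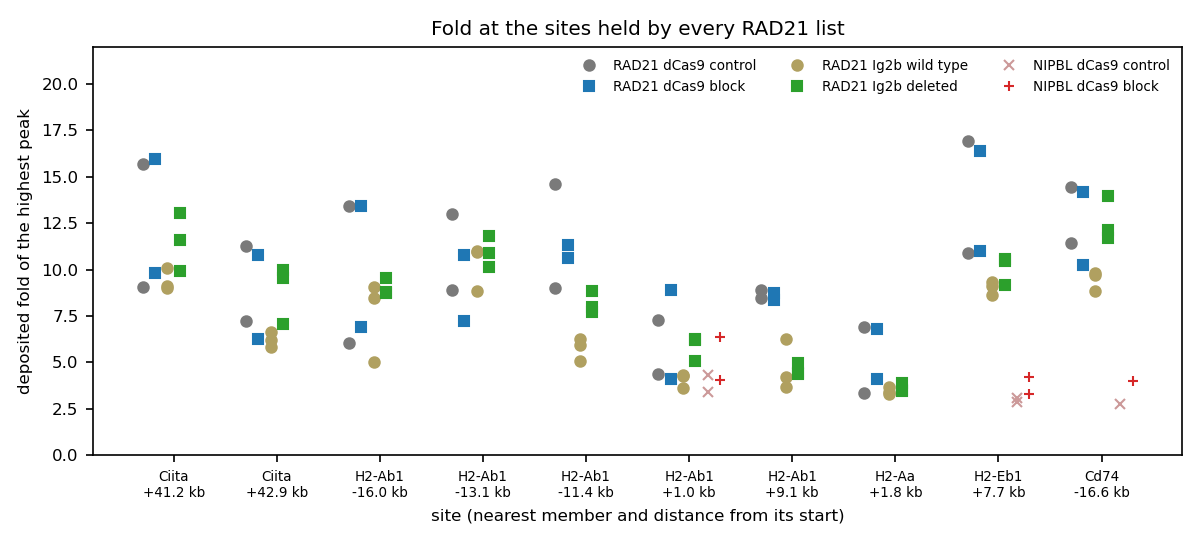
Deposited fold of the highest peak (y axis) at the 10 sites held by all 10 RAD21 lists (x axis), with 1 mark per library and NIPBL marks where that list had a peak. The H2-Aa site is lowest (3.27 to 6.89), the H2-Eb1, Ciita 41.2 kb and Cd74 -16.6 kb sites reach 16.9, 15.95 and 14.4, and NIPBL marks stand at 3 of the 10; folds of different lists are not on 1 scale.

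RAD21 peaks covered 3.02% and 9.79% of the interval in the dCas9 control libraries and 4.29% and 7.68% in the block libraries (6.40% ± 4.79 and 5.99% ± 2.40, SD, n = 2 each). The groups overlapped, and the difference was -0.417 points (exact permutation test, two-sided, p = 1; the smallest p that 2 against 2 allows is 0.33). Within replicate number 1 block was 1.28 points above control and within number 2 it was lower, at -2.11 points. Without dCas9 control replicate 2 the difference was 2.97 points, without control replicate 1 it was -3.81, without block replicate 1 it was 1.28 and without block replicate 2 it was -2.11.

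In the Ig2b experiment RAD21 covered 3.58%, 3.55% and 3.07% in wild type and 4.66%, 6.25% and 2.76% in deleted libraries (3.40% ± 0.284 and 4.56% ± 1.75, SD, n = 3 each). Deleted replicate 3 was below all wild type libraries and the other deleted libraries were above them. The difference of 1.16 points was within that spread (exact permutation test, two-sided, p = 0.4; the smallest possible is 0.1). It was 0.0323 points with flanks of 5 kb in place of 20 kb, 0.313 without deleted replicate 2 and 2.06 without deleted replicate 3.

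NIPBL covered 2.48% and 2.05% of the interval in control and 3.24% and 3.14% in block libraries (2.26% ± 0.301 and 3.19% ± 0.0707, SD, n = 2 each). Both block libraries lay above both controls, by 0.929 points on average (exact permutation test, two-sided, p = 0.33, the smallest possible). The block lists covered 20.3 and 29.8 Mb of the genome and the control lists 22.5 and 21.6 Mb. Relative to the cover of the genome by the same list, the interval held 2.90 and 2.50 times as much in control and 4.21 and 2.78 times in block, and on this scale the groups overlapped. At a -log10 q of at least 3 NIPBL control replicate 2 had no peak left in the interval.

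For RAD21 the same ratio was 5.02 and 7.51 in dCas9 control, 4.79 and 6.43 in block, 6.18 to 7.01 in Ig2b wild type and 6.12 to 6.78 in deleted libraries. With these flanks of 20 kb the RAD21 values lay above the 4 NIPBL values of 2.50 to 4.21, but with flanks of 5 kb they overlapped, at 2.80 to 5.00 for RAD21 and 3.01 to 4.76 for NIPBL. The antibodies differ, so this sets called peaks side by side and not amounts of protein.

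**Figure D3:**
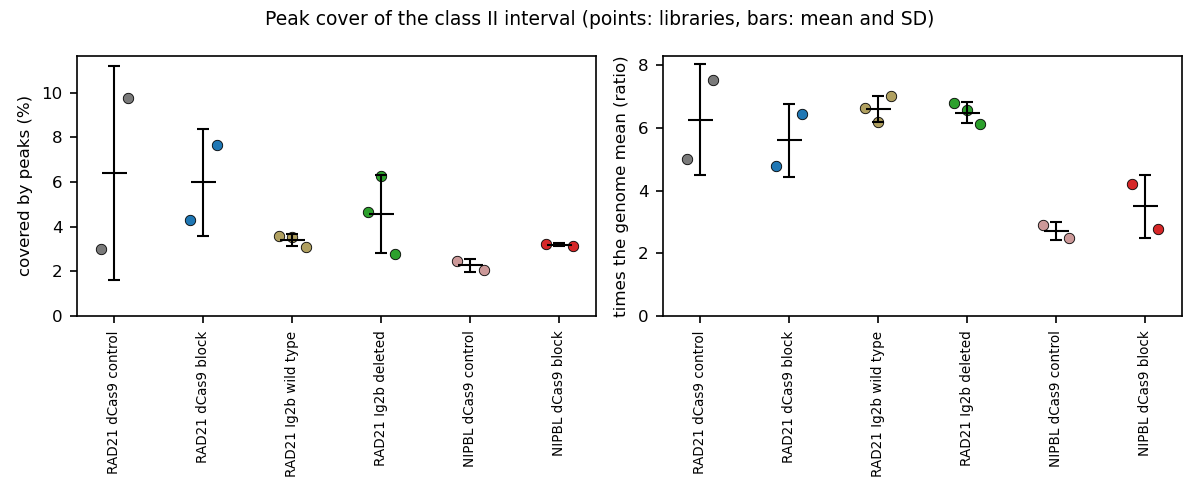
Share of the class II interval covered by peaks (left, percent) and the same share divided by that of the genome in the same list (right, ratio), with 1 point per library and the mean and SD of each group. With flanks of 20 kb RAD21 lists lie at 2.76% to 9.79% and 4.79 to 7.51 times the genome, NIPBL lists at 2.05% to 3.24% and 2.50 to 4.21 times.

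The invariant chain, the chaperone that fills the groove of new class II molecules, is encoded by Cd74 (chr18:60963502-60972300, plus strand). Near its start NIPBL had a peak in 4 of 4 libraries and RAD21 in 6 of 10. At a -log10 q of at least 3 these counts were 0 of 4 and 3 of 10, and within 2 kb of the start they were 2 of 4 and 1 of 10. NIPBL covered 648 and 157 bp in control and 674 and 558 bp in block libraries. RAD21 covered 0 and 949 bp in dCas9 control, 0 and 1064 bp in block, 0, 65 and 123 bp in Ig2b wild type and 0, 347 and 75 bp in deleted libraries. The high RAD21 values were those of the replicate 2 libraries in both dCas9 groups, whose lists are the longer ones, and both replicate 1 libraries were at 0. The site held by all 10 RAD21 lists was not in the gene but 16.6 kb before it, in intergenic sequence 12.7 kb from the nearest annotated start, that of Rps14. Its fold was 8.84 to 14.4 (median 11.6), above 91.4% to 98.1% of the peaks of the same list, and NIPBL had a peak there in 2 of 4 libraries. NIPBL was in all 4 libraries at 2 sites past the gene, both in Tcof1, at 17.8 kb (exon, fold 2.89 to 3.93) and 27.1 kb (intron, fold 3.68 to 5.50) from the Cd74 start. RAD21 had a peak in 0 of 10 libraries at the first and 7 of 10 at the second.

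Ciita (chr16:10480237-10527657, plus strand, the longer of 2 gene models with that symbol) had no RAD21 peak within 5 kb of its annotated start in any of 10 libraries. NIPBL covered 51 and 0 bp of this window in control and 0 and 221 bp in block libraries. In the 20 kb before the start 1 of 14 libraries had a peak, NIPBL block replicate 2, and this peak lay over the start itself. The transcript of the CCDS set starts 8.135 kb further on, and RAD21 covered 0 and 851 bp within 5 kb of that start in dCas9 control, 0 and 248 bp in block, 181, 226 and 247 bp in Ig2b wild type and 327, 703 and 136 bp in deleted libraries. RAD21 thus had a peak at this second start in 8 of 10 libraries, all but dCas9 control replicate 1 and block replicate 1, and NIPBL in 3 of 4, covering 0 and 146 bp in control and 51 and 428 bp in block. This start was examined after the values at the first were known.

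The RAD21 sites held by every list lay at the other end of Ciita, in introns 41.2 and 42.9 kb from its start, with no NIPBL in any library. Their folds were 9.02 to 15.95 (median 10.0) and 5.80 to 11.2 (median 7.14), above 89.3% to 97.3% and 72.3% to 91.1% of the peaks of the same list. Past the gene NIPBL was in all 4 libraries over the starts of the neighbours Dexi (fold 4.07 to 6.85) and Clec16a (fold 4.63 to 7.63), where RAD21 had a peak in 3 and 0 of 10 libraries. In the body of Ciita NIPBL covered 1.31% ± 0.996 (SD, n = 4) and RAD21 3.15% ± 1.63 (SD, n = 10), against 21.5% ± 5.28 and 9.13% ± 8.78 in the body of H2-Ab1. These SDs run over all groups, and for RAD21 over both experiments, so they are not a spread of replicates. RAD21 group means in H2-Ab1 were 17.2% (dCas9 control), 12.7% (block), 4.47% (Ig2b wild type) and 6.04% (deleted). In Ciita they were 4.42%, 3.85%, 2.21% and 2.79%. By their peak names the dCas9 and Ig2b lists were called differently, so these means do not compare levels between the experiments.

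**Figure D4:**
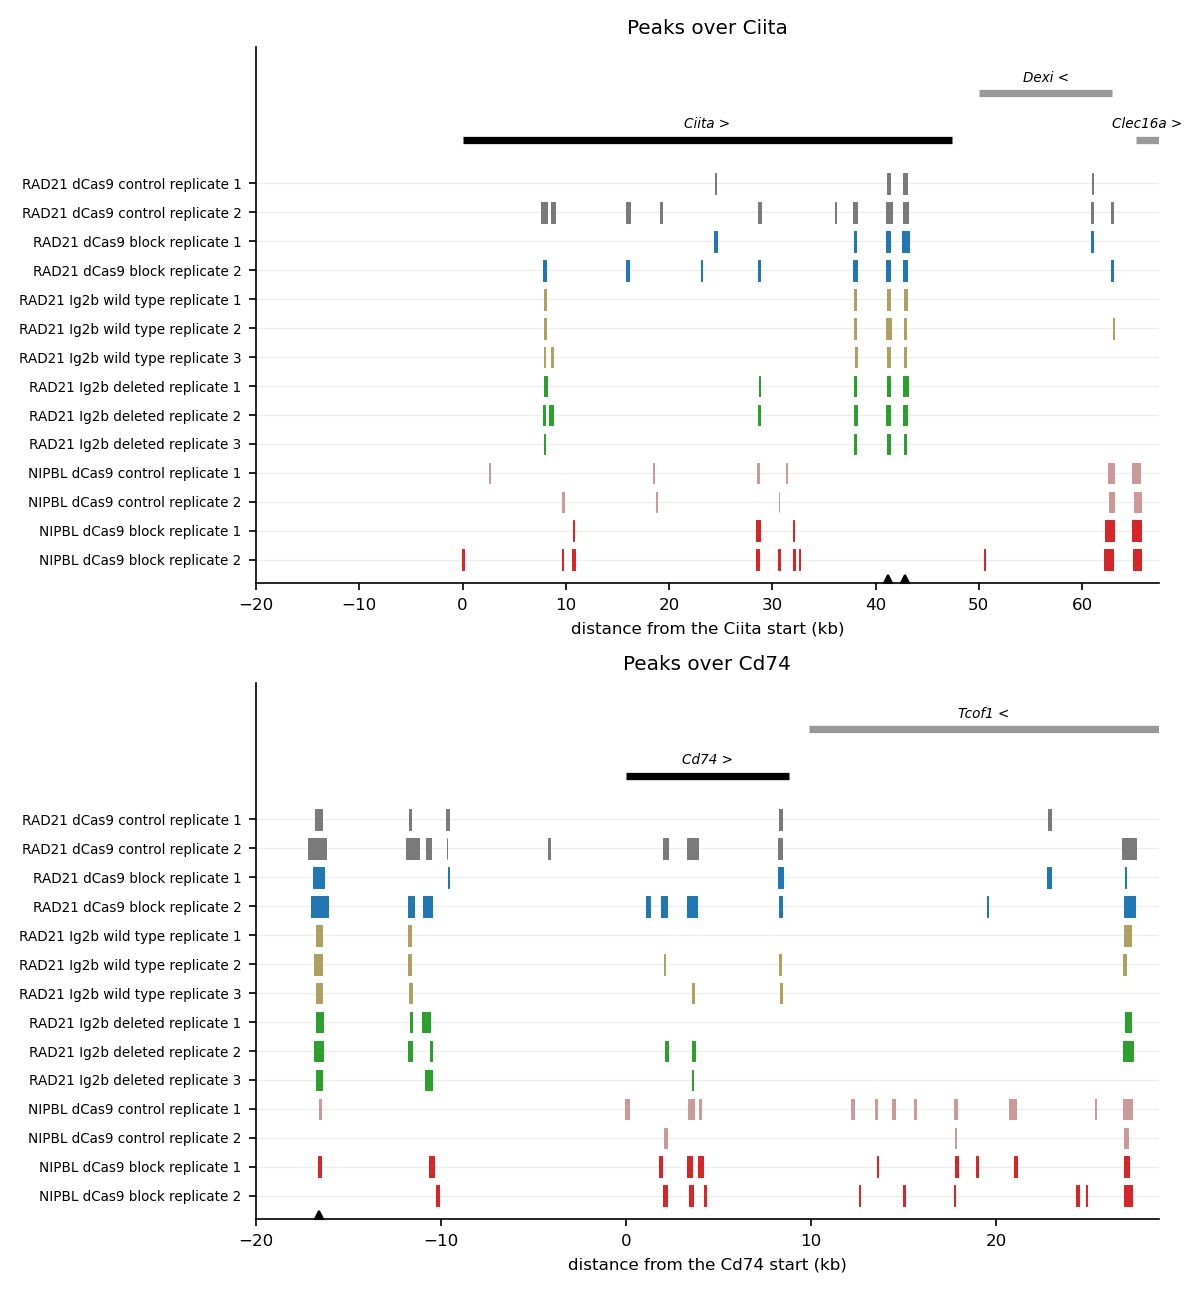
Called peaks over Ciita (top) and Cd74 (bottom) in each of the 14 libraries (rows, coloured by group), with distance from the start of each gene in kb on the x axis, gene models above and triangles at sites held by all 10 RAD21 lists. At Ciita the constant RAD21 sites stand at 41.2 and 42.9 kb and NIPBL at the starts of Dexi and Clec16a; at Cd74 the constant RAD21 site stands at -16.6 kb.

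By RAD21 cover near the start H2-Ab1 was first of the 5 genes in each of the 10 libraries. The order of the next 2 genes differed between the experiments. In Ig2b wild type libraries H2-Aa had 172 ± 71.3 bp and Cd74 62.7 ± 61.5 bp, and in deleted libraries 168 ± 24.5 and 141 ± 183 bp (SD, n = 3 each). In dCas9 control libraries H2-Aa had 420 ± 352 bp and Cd74 474.5 ± 671 bp, and in block libraries 284.5 ± 60.1 and 532 ± 752 bp (SD, n = 2 each), where the Cd74 cover came from the replicate 2 libraries alone. H2-Aa was above Cd74 in 7 of 10 libraries. H2-Eb1 and Ciita were last, at 0 bp in 7 and 10 of the 10 libraries. By mean NIPBL cover the order ran from H2-Ab1 (1495 ± 467 bp) to Cd74 (509 ± 240 bp), H2-Aa (218 ± 95.7 bp), H2-Eb1 (86.5 ± 99.97 bp) and Ciita (68.0 ± 105 bp; SD, n = 4 each). Apart from H2-Ab1, each member's NIPBL range overlapped that of its neighbour in this order. H2-Ab1 (1146 to 2169 bp) lay above the highest NIPBL value of any other member, 674 bp.

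**Figure D5:**
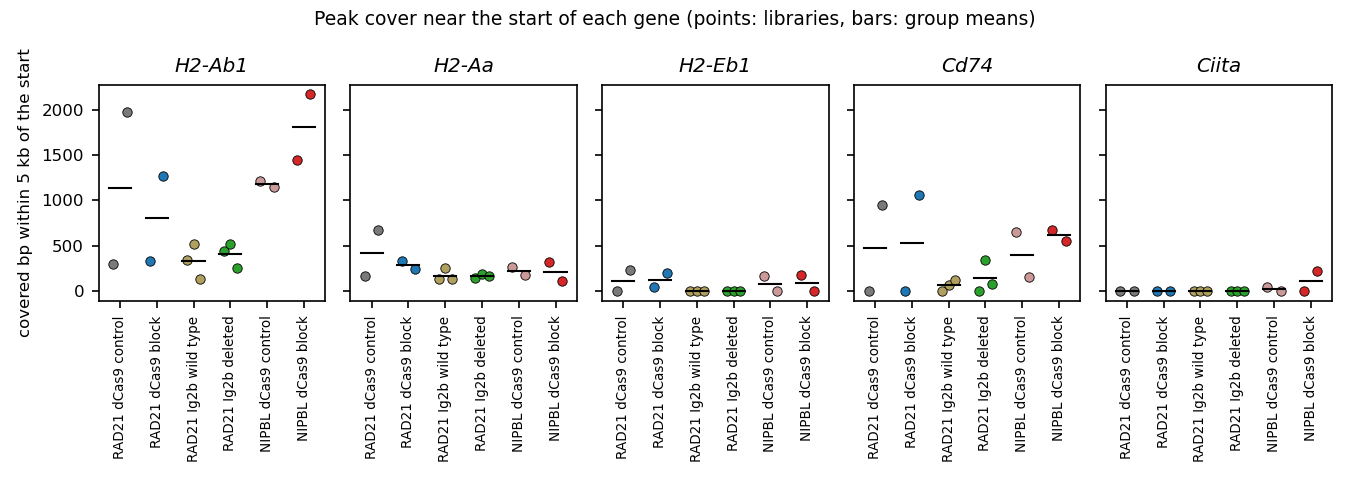
Bases covered by peaks within 5 kb of the start (y axis) of each of the 5 genes, with 1 point per library in the 6 groups on the x axis and a bar at the group mean. H2-Ab1 has the highest NIPBL values (1146 to 2169 bp), and the RAD21 dCas9 groups are spread widely at H2-Ab1 and Cd74. H2-Eb1 and Ciita are at 0 in most libraries, with highest values of 233 and 221 bp.

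A start peak in every library of a group is common among all genes, and the members were read against that. Both H2-Ab1 and H2-Aa had one in every library of each of the 4 RAD21 groups, and in dCas9 block H2-Eb1 did as well. Among all 22208 genes the share was 34.3% in RAD21 dCas9 control, 41.3% in block, 27.4% in Ig2b wild type and 32.1% in deleted libraries. In both NIPBL groups H2-Ab1, H2-Aa and Cd74 had one in every library, against 56.5% of genes in control and 57.8% in block. Over all 10 RAD21 libraries 2 of the 5 had one, against 23.4% of genes, and over all 4 NIPBL libraries 3 of the 5, against 51.7%.

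No member gained a start peak (in every library of one group and in none of the other) or lost one. Such changes were rare among all genes: 0.356% gained and 0.0946% lost a RAD21 start peak with the block, 1.54% and 1.17% a NIPBL start peak with the block, and 0.675% and 0.0225% a RAD21 start peak with the deletion. Of the peak regions within 20 kb of the members, merged anew over the libraries of each comparison, NIPBL gained 3 of 54 with the block and lost 0. They were 2 regions in exons of Ciita, at 10.7 kb (chr16:10490823-10491120, fold 2.71 to 3.36) and 32.1 kb (chr16:10512271-10512434, fold 2.69 to 4.00), and 1 before H2-Ab1 at -1.502 kb (chr17:34398537-34398768, fold 2.92 to 3.75). Each Ciita region held a peak at the lowest fold of its list, 3.36 in block replicate 1 at the first and 2.69 in block replicate 2 at the second. Of all NIPBL regions 2.48% were gained and 1.65% lost.

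With the Ig2b deletion RAD21 gained 1 of 33 regions, at -10.8 kb from the Cd74 start (chr18:60952457-60953031, intergenic, 575 bp, fold 3.16 to 3.91), and lost 0, against 0.931% gained and 0.191% lost of all regions. In the other experiment RAD21 had a peak there in dCas9 control replicate 2 and block replicate 2. With the dCas9 block RAD21 gained 0 and lost 0 of 46 regions, against 1.15% and 0.278%.

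Covered bp in the start windows of all genes were then tested with limma, on log2 of covered bp plus 500, in windows with a mean of at least 100 bp. No window passed an adjusted p of 0.05 in any comparison: 0 of 11316 (0%) for the RAD21 block, 0 of 13702 (0%) for the NIPBL block and 0 of 8655 (0%) for the Ig2b deletion, with 0, 1547 and 790 under an unadjusted p of 0.05. Of these 1387 were higher in the NIPBL block and 765 in deleted libraries, against 594 of 1027 and 470 of 736 after quantile normalization of the lists. The NIPBL window of H2-Ab1 had a difference of 0.44 on the log2 scale (SE 0.20, limma adjusted p 0.48), and both block libraries were above both controls; the median of all windows tested was 0.16. Without block replicate 2 it was 0.21 and without block replicate 1 it was 0.67. For Cd74 it was 0.36 (SE 0.30, limma adjusted p 0.64; -0.043 without control replicate 2 and 0.76 without control replicate 1), and for H2-Aa -0.025 (SE 0.20, limma adjusted p 0.97).

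Under the RAD21 block H2-Ab1 had a log2 difference of -0.21 (SE 0.73), H2-Aa of -0.18 (SE 0.45), H2-Eb1 of 0.039 (SE 0.42) and Cd74 of 0.055 (SE 0.81), each with a limma adjusted p of 1. Within replicate number 1 these were 0.066, 0.30, 0.14 and 0, and within number 2 they were -0.48, -0.66, -0.062 and 0.11. The signs for H2-Ab1, H2-Aa and H2-Eb1 thus differed between the numbers. With the Ig2b deletion H2-Ab1 had 0.14 (SE 0.22, limma adjusted p 0.78), Cd74 0.16 (SE 0.23, limma adjusted p 0.75) and H2-Aa -0.0033 (SE 0.14, limma adjusted p 0.99), where the median of all windows was 0.24. With quantile normalization H2-Ab1 was -0.11 and Cd74 -0.018. Ciita did not pass the filter in any comparison, nor H2-Eb1 in the NIPBL block or Ig2b comparisons, so no test is given for them at the annotated start. At the CCDS start of Ciita, chosen after the values were seen, the log2 difference was -0.43 for the RAD21 block (SE 0.62, limma adjusted p 1), 0.33 for the NIPBL block (SE 0.31, limma adjusted p 0.67) and 0.26 for the deletion (SE 0.24, limma adjusted p 0.65).

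The other genes of the pathway were counted by a start peak in every library, against the 23.4% of all genes for RAD21 and 51.7% for NIPBL given above. Of 10 other class II and peptide loading genes 4 had a RAD21 peak in all 10 libraries and 8 a NIPBL peak in all 4. Ifi30, a thiol reductase of the endosome, had 1383 ± 775 bp of RAD21 and 1766 ± 620 bp of NIPBL near its start (SD, n = 10 and n = 4, here and in the next values). The SDs run over all groups, and for RAD21 over both experiments, so they are not a spread of replicates. H2-DMa, a chain of the peptide exchange factor, had 816 ± 457 bp and 582 ± 167 bp, and of the genes of its partner chain H2-DMb2 had a RAD21 peak in 8 of 10 and a NIPBL peak in 4 of 4 libraries, and H2-DMb1 in 0 of 10 and 1 of 4.

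In a list of 11 genes for possible regulators of the class II pathway, not all of them factors of the X and Y boxes, 10 had a NIPBL peak in all 4 libraries. Of the 11 genes 1, Irf8, had a RAD21 peak in all 10. Irf8 had 1526 ± 1657 bp of RAD21 and 1944 ± 886 bp of NIPBL near its start. Rfx5 and Rfxap, subunits of the RFX complex, had RAD21 peaks in 5 and 6 of 10 libraries and covered 835 ± 175 bp and 1135 ± 71.2 bp in NIPBL. Nfyc had none in any library of either protein.

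Of 9 class I genes 5 had a RAD21 peak in all 10 libraries and 9 a NIPBL peak in all 4. H2-D1, a class I heavy chain, had 1572 ± 579 bp of RAD21 and 2875 ± 761 bp of NIPBL. Tap1 and Psmb9 start within the same window and so share their values. Of 4 co-stimulation genes Icosl alone had a start peak in all libraries of both proteins, and Cd86 had one in 1 RAD21 and no NIPBL library.

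The genes whose start cover was most like that of a member over the 14 libraries were Lca5 (Pearson r = 0.98), Flna (0.98) and Ciao1 (0.98) for H2-Ab1, and Bpgm (0.90), Prim1 (0.89) and Tmem108 (0.89) for H2-Aa. For Cd74 they were C130039O16Rik (0.96), Zscan22 (0.96) and Hinfp (0.96), and for H2-Eb1, with a peak in 5 libraries, 4921517D21Rik (0.96), Psmd1 (0.93) and Utp14a (0.90). Each trio is the highest of 15024 to 15113 genes more than 1 Mb away with a peak in at least 3 libraries. The points share list length and protein, and no test is given. Ciita had a start peak in too few libraries for this comparison.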

How the data were processed

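The 14 immunoprecipitated libraries have deposited broadPeak lists of 9 columns; 4 inputs are not analysed here. The submitters' processing notes name mm9, Bowtie2 2.2.8, SAMtools 1.8 and MACS2; the version and settings of the last are not given in the sources used here. Lists are per library, not pooled. The authors' fold of each peak is a ratio over the local background. It was used to rank peaks within a list and to describe sites by range and median over lists, which do not share a scale. It entered no test. The deposited −log10 q served only for a stricter threshold and for matching list lengths; the deposited −log10 p and the authors' score column were not used. Per the peak names, a control entered the calling of the NIPBL and dCas9 RAD21 lists, whereas the Ig2b lists name none and had duplicates removed. Values of the dCas9 and Ig2b experiments that stand side by side are therefore not a comparison of levels.

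Genes were those of GENCODE vM1 (NCBIM37, the same assembly as mm9), with the longest model per symbol, on X and 19 autosomes. Overlapping peaks of 1 library were joined before their bases were summed. Start windows were tested in R 4.3.3 with the package limma 3.58.1 (both tails, Benjamini-Hochberg over all windows, adjusted p under 0.05, no normalization between lists, no replicate block), after the fit was tested on simulated data. That simulation had less noise than the member windows and only windows of higher cover, so it says little on low or uneven windows. Interval cover was tested by exact permutation over libraries. Sites, motifs and figures used Python 3.11.15, numpy 2.4.6, pandas 2.3.3 and matplotlib 3.10.9. All 5 members, every site in all 10 RAD21 or all 4 NIPBL libraries, every gained or lost region, up to 4 genes per list (most libraries with a start peak, then most covered bp) and the 3 genes most like each member were to be named; Rfx5, Rfxap, Nfyc, H2-DMb1, H2-DMb2, Cd86, Tap1, Psmb9, Cd3e, Lck, Alb and Gata1 were named after their values were seen. Of the listed symbols Spi1 was matched by its older symbol, and H2-Ea-ps and Nlrc5 were not matched. The sequences of 2 cores are not reported here. The members, lists, tests and alternatives were chosen with earlier results of these data known.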

Additional observations from a re-analysis of the deposited data

How the results depend on the processing

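Read depth is unknown and groups hold 2 or 3 libraries, so comparisons rest on where peaks were called and how long they are, and small differences would not be detectable. No start window was called in the settings tried except at a −log10 q of at least 3, where limma called 171 for the NIPBL block and 122 for the Ig2b deletion, and with lists matched in length, where it called 1, lower, for the Ig2b deletion; of the others 170 and 119 were higher; the cause was not tested. No member was called in any of 113 member values refitted (lowest limma adjusted p 0.198, for H2-Ab1 under the deletion at that threshold).

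The replicate numbers were not taken as pairs. Deviations of same-numbered libraries correlated at 0.73 in the RAD21 block comparison, -0.020 in the NIPBL block and 0.024, 0.18 and 0.22 in the Ig2b comparison, where deleted replicate 1 did not correlate best with its own number. With the replicate block 0 windows were called in each comparison (341, 1137 and 1669 under an unadjusted p of 0.05). In balanced groups the block leaves the log2 differences as they are, and the SE under the RAD21 block went from 0.73 to 0.27 for H2-Ab1 and from 0.81 to 0.26 for Cd74.

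With the stricter threshold the signs turned for H2-Aa (0.30) and Cd74 (-0.19) under the RAD21 block. With lists matched in length they turned for H2-Eb1 under the RAD21 block (-0.031), H2-Aa under the NIPBL block (0.052) and H2-Aa under the deletion (0.073). With windows of 2 kb to each side H2-Aa under the NIPBL block was 0.14, with 100 bp added H2-Aa under the deletion was 0.0071, and with quantile normalization H2-Ab1 and Cd74 under the deletion were -0.11 and -0.018. Leaving out each library gave -1.03 to 0.61 for H2-Ab1, -0.58 to 0.22 for H2-Aa, -0.24 to 0.21 for H2-Eb1 and -0.77 to 0.88 for Cd74 under the RAD21 block. It gave 0.21 to 0.67 for H2-Ab1, -0.24 to 0.19 for H2-Aa and -0.043 to 0.76 for Cd74 under the NIPBL block, and -0.043 to 0.29 for H2-Ab1, -0.048 to 0.083 for H2-Aa and 0.074 to 0.32 for Cd74 under the deletion, where Cd74 was below the filter without wild type replicate 3 or deleted replicate 2. Below the filter, with no value, were also Cd74 with windows of 2 kb to each side in each comparison, Cd74 and H2-Aa at the stricter threshold under the NIPBL block and the deletion, Cd74 under the deletion with lists matched in length, and H2-Eb1 under the RAD21 block at the stricter threshold and without control or block replicate 2. With each library left out, cover of the class II interval differed by -3.81 to 2.97 points under the RAD21 block, 0.716 to 1.14 under the NIPBL block and 0.313 to 2.06 under the deletion, and with flanks of 5 kb by 0.0323 under the deletion. H2-Eb1 under the NIPBL block had a value with no filter (0.011) and without control or block replicate 2 (-0.20 and 0.23). Start peaks of H2-Ab1 were left in 8 of 10 RAD21 and 3 of 4 NIPBL libraries at the stricter threshold. The start of the CCDS transcript, added after the values were seen, changed no call.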

Other observations

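Sites with NIPBL and no RAD21 lay often in exons at these genes. Of 36 such sites within 20 kb of the members 18 (50%) had their middle in an exon of a protein-coding gene, against 2 of 32 (6.25%) for sites with RAD21 and no NIPBL. Over the genome the shares were 11.3% of 196096 and 3.01% of 114430. Exons made up 9.51% of the bases near the members and 3.01% of the genome. Of the 18 exonic sites 7 were in Tcof1 and 6 in Ciita. NIPBL sites without RAD21 had a median width of 139 bp near the members and 131 bp over the genome. Most of the 36 near the members were in 1 library only, as were most of the 18 exonic ones. Of the sites of either protein, 13 of the 31 class II, 15 of the 27 Cd74 and 10 of the 25 Ciita sites were in 1 library only.

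A RAD21 site 38.0 kb into Ciita, singled out after its values were seen, was in 9 of 10 RAD21 libraries and in no NIPBL library; dCas9 control replicate 1 was the exception.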
